A study of Oryza sativa with 6 samples.

Results

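The genes described here encode enzymes of diterpenoid phytoalexin synthesis in rice, measured in roots of transgenic Huahui 1 rice (HH1) and of Minghui 63 (MH63), the cultivar it was made from. They were chosen by name: 10 gene names (OsDTS2, CYP76M5, CYP76M6, CYP76M7, CYP76M8, OsKO4, CYP99A2, CYP99A3, KSL4 and CPS4) were looked up among the symbols and synonyms of the RefSeq annotation of assembly ASM3414082v1. OsDTS2 and KSL4 are 2 names of the same gene, so the list holds 9 genes of 17905 on the array, read by 10 of 57194 probe sets. HH1 (3 arrays) carries a transgene in the Minghui 63 background, and MH63 (3 arrays) is that cultivar without it. HH1 is known as an insect-resistant rice with a Bt toxin gene, and it is 1 line, so that line and transgene cannot be told apart. Seedlings of both genotypes were grown in nutrient solution in a climate chamber, and roots were taken at 30 days. The labels call the samples biological replicates and do not say whether each was 1 plant or a pool. The stated purpose of the study was to look for unintended effects of the transformation in the root.

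Rice makes 2 main families of diterpenoid phytoalexins, the momilactones and the phytocassanes, which act against fungi, and momilactones are also released by roots and inhibit neighbouring plants. Both start from geranylgeranyl diphosphate, which comes from the isoprenoid pathway of the plastid. A class II cyclase (CPS4 for momilactones, CPS2 for phytocassanes) folds it into a copalyl diphosphate, a kaurene synthase-like enzyme (KSL4, KSL7) makes the hydrocarbon skeleton, and cytochrome P450 enzymes of the CYP99A, CYP76M, CYP71Z and CYP701A groups oxidise it. Gibberellins, the growth hormones, are made from the same precursor by related but separate enzymes (CPS1, KS1, KO2), and elicitors and jasmonate are known to switch on the phytoalexin genes in leaves and cultured cells.

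The labelled tissue was checked first. Of 9 root marker genes with a probe set, 8 were above the background level on all 6 arrays, among them the silicon transporter LSI1, at 7013, 7463 and 8571 in HH1 and 8585, 4801 and 6600 in MH63. The background level used throughout is the 95th percentile of 64 reporter probe sets for foreign genes, between 37.1 and 42.3 on the 6 arrays. The endodermis gene SCR1 was at or below that level on every array. Values are signals, the deposited intensity of a probe set on a linear scale. Median signals lay between 33.1 and 33.8. With 3 arrays a genotype, precision is set by the array number. The HH1 arrays were less alike than the others: over 28597 tested probe sets, log2 signals of HH1 arrays correlated at r 0.932 to 0.966 with each other, those of MH63 arrays at 0.971 to 0.980, and the lowest value belonged to HH1 replicates 2 and 3. Markers of other tissues also varied between arrays. The summed signal of 12 green tissue genes was 705, 2190 and 557 in HH1 replicates 1, 2 and 3 and 2710, 2857 and 527 in MH63 replicates 1, 2 and 3. That of 8 seed storage genes was 6568, 1251 and 1181 in HH1 replicates 1, 2 and 3 and 1517, 1156 and 1657 in MH63 replicates 1, 2 and 3. Above background on all 6 arrays were 2 of the 12 green tissue genes and 2 of the 8 seed genes. At or below it on all 6 were 2 of the green tissue genes and 1 of the seed genes. Their part in the results below was not tested.

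Most genes of the list gave a strong signal in HH1 replicates 1 and 2 and a weak one in HH1 replicate 3, with MH63 between or near the weak one. CPS4, the cyclase that opens the momilactone branch, had signals of 818, 1071 and 51.3 in HH1 replicates 1, 2 and 3, against 48.3, 206 and 113 in MH63 replicates 1, 2 and 3. KSL4, which turns the product of CPS4 into the momilactone hydrocarbon, read 813, 828 and 26.2 in HH1, against 18.3, 75.8 and 64.1 in MH63. HH1 replicate 3 and MH63 replicate 1 were below the background level for KSL4, and for both cyclases HH1 replicate 3 lay inside the MH63 range, so the groups overlapped. The log2 difference between genotypes (HH1 minus MH63, with its standard error) was 1.77 ± 1.17 for CPS4 and 2.54 ± 1.36 for KSL4. These are changes in the signal of whole roots, in which fewer cells of a type and less RNA per cell cannot be told apart.

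The P450 genes of the momilactone branch followed the same arrays. CYP99A2, which oxidises the momilactone hydrocarbon, had signals of 2302, 2904 and 61.6 in HH1, against 48.8, 330 and 174 in MH63. Its paralogue CYP99A3 read 748, 1287 and 64.5 in HH1, against 181, 379 and 145 in MH63. For CYP99A3, HH1 replicate 3 lay below all 3 MH63 arrays, whereas for CYP99A2 it lay above MH63 replicate 1. The log2 differences were 2.40 ± 1.51 for CYP99A2 and 0.88 ± 1.07 for CYP99A3. OsKO4, also named CYP701A8, is a P450 of the kaurene oxidase family that acts on phytoalexin precursors instead of gibberellin ones. It had signals of 1236, 1591 and 40.5 in HH1, against 133, 326 and 127 in MH63, a log2 difference of 1.29 ± 1.35. Here too HH1 replicate 3 was below every MH63 array, by 2.12 on the log2 scale from the MH63 mean, while HH1 replicates 1 and 2 were 2.81 and 3.17 above that mean.

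The CYP76M genes, whose enzymes hydroxylate diterpene skeletons, were less uniform. CYP76M5 had signals of 93.9, 136 and 15.7 in HH1, against 16.5, 28.2 and 24.99 in MH63. All MH63 arrays were at or below the background level, so no full fold is given. With MH63 set to that level, the ratio of HH1 to MH63, from means of log2 signals, was 1.46. HH1 replicate 3 was itself below background and kept its own signal, so this ratio is not a firm lower limit. CYP76M8 read 262, 314 and 179 in HH1, against 193, 190 and 173 in MH63, a log2 difference of 0.40 ± 0.22, from a probe set that can also bind related transcripts. CYP76M6 had 2 probe sets that disagreed. The brighter read 88.3, 109 and 118 in HH1, against 91.9, 79.8 and 123 in MH63, and was high in no particular array. The dimmer read 60.0, 80.0 and 26.1 in HH1, against 23.5, 31.4 and 25.3 in MH63, with MH63 at or below background throughout. The same ratio was 1.25 for it, again with HH1 replicate 3 below background. The dimmer probe set had the pattern of the other genes on the list, and no value here shows which of the 2 reads the transcript.

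The probe set annotated to CYP76M7 gave 4.15, 4.89 and 4.75 in HH1, against 4.36, 3.59 and 4.30 in MH63, at or below background on all 6 arrays, so no fold is given and it was not tested. The annotation places the gene of that name on chromosome 6, away from the other CYP76M genes on chromosome 2, although the enzyme is usually assigned to the chromosome 2 cluster, so the probe set may not read it. Of the genes without a name in that cluster, LOC4329723 had a strong signal, given below with its neighbours; whether it is the gene usually called CYP76M7 was not tested.

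**Figure D1:**
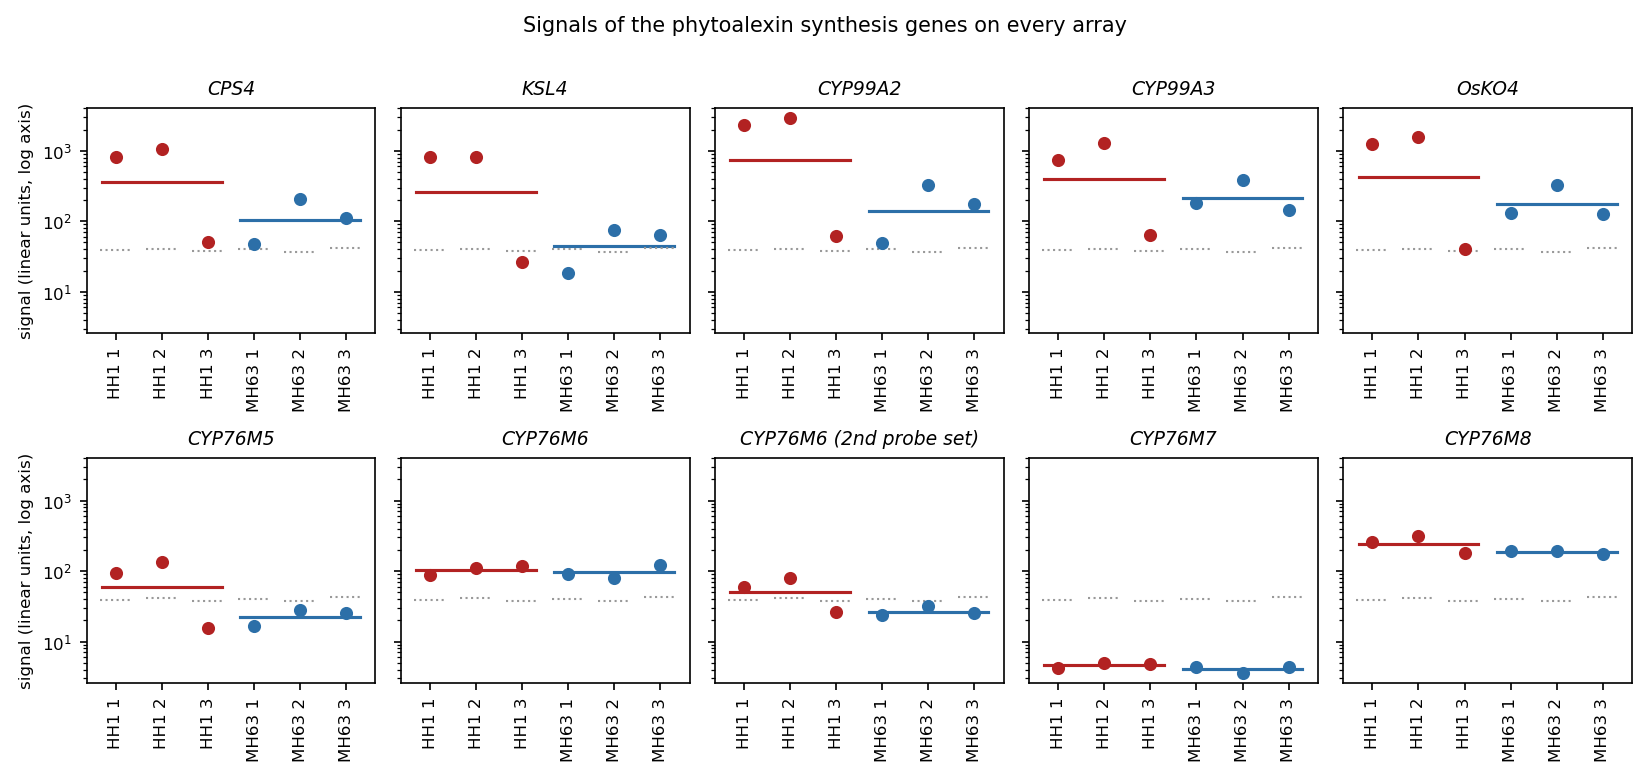
Signal of every probe set of the 9 genes on each array (linear units on a log axis; HH1 arrays in red, MH63 arrays in blue; horizontal bars, mean of the log2 signals of 3 arrays; dotted lines, background level of that array). HH1 replicates 1 and 2 stood above all MH63 arrays for every gene except CYP76M7 and the brighter probe set of CYP76M6, and HH1 replicate 3 stood above the MH63 arrays for none of the 9 probe sets tested.

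None of the 9 probe sets tested passed between the genotypes with all 6 arrays. The adjusted p was 1.00 for each in limma with Benjamini-Hochberg adjustment, and the smallest unadjusted p was 0.054, for the dimmer probe set of CYP76M6. Over all probe sets 0.112% were called and 4.01% had an unadjusted p under 0.05, against 0 of the 9 in both counts. The groups did not overlap for 8.78% of all probe sets and for 0 of the 9. All 9 differences were above 0, where 46.4% of all probe sets were. Of the 9, 5 were above 1 on the log2 scale, where 0.881% of all were. The genes were chosen with earlier results of these data known, so these shares describe them and are no independent test. The median over the 8 genes tested was 1.33, beside -0.01 over all probe sets. CYP76M5 entered that median and the 5 above 1 with a difference of 1.37, taken from MH63 signals at or below background. The size of its difference is therefore not settled, here or with an array dropped. The median over the genes tested moved with single arrays: dropping HH1 replicate 1 gave 0.52 over 7 genes, with 3 of 7 tested probe sets above 1. Dropping HH1 replicate 2 gave 0.34 over 7 genes, with 2 of 7 probe sets. Dropping HH1 replicate 3 gave 2.65 over 8 genes, with 7 of 9. CYP76M5 was too dim to be tested without HH1 replicate 1 or 2, so part of those 2 shifts comes from the change of genes.

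Array by array, HH1 replicate 1 exceeded all MH63 arrays for 8 of the 9 probe sets (28.4% of all probe sets), HH1 replicate 2 for 8 (25.7%) and HH1 replicate 3 for 0 (28.3%). HH1 replicate 3 was below all MH63 arrays for 3 (26.5%), namely CYP99A3, OsKO4 and CYP76M5. For CYP76M5 it and all MH63 arrays were at or below background, so that order is not a measured difference. Within MH63, replicate 2 gave the highest signal for 7 of the 9, where it was the highest for 20.4% of all probe sets. Relative to the MH63 mean of each gene, the median over the 8 genes was 2.43, 2.88 and -0.89 in HH1 replicates 1, 2 and 3 and -0.44, 0.79 and 0.13 in MH63 replicates 1, 2 and 3 on the log2 scale. The same median over all probe sets lay between -0.05 and 0.06 on the 6 arrays.

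HH1 arrays spread widely for most of these genes. The SD of the log2 signal among HH1 arrays was 2.87 for KSL4, 2.96 for OsKO4 and 3.12 for CYP99A2, where the median over all probe sets was 0.20. For CYP99A2 it was larger than in 99.9% of the probe sets tested. Among MH63 arrays CYP99A2 also varied widely, with an SD of 1.40 (larger than in 99.4% of probe sets) and a signal 6.76 times as high in replicate 2 as in replicate 1. For CYP76M8 the SD was 0.42 in HH1 and 0.09 in MH63. In 8 of the 9 probe sets HH1 varied more than MH63, and the brighter probe set of CYP76M6 was the one that did not.

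Which array was left out therefore decided the test. Without HH1 replicate 3, 4 of the 9 probe sets passed in limma, where 1.07% of all probe sets did. All 4 were higher in HH1, as were 1.01% of all probe sets. The log2 differences and adjusted p were then 2.32 and 0.022 for CYP76M5, 4.20 and 0.039 for KSL4, 1.38 and 0.039 for the dimmer probe set of CYP76M6, and 2.99 and 0.040 for OsKO4. For CYP76M5 and the dimmer probe set of CYP76M6 all MH63 arrays were at or below background, so the size of these differences is not settled. CYP99A2, at 4.20 with an adjusted p of 0.083, and CPS4, at 3.17 with 0.088, did not pass, nor did CYP99A3, at 2.19 with 0.14, or CYP76M8, at 0.63 with 0.25. Leaving out HH1 replicate 2 brought CYP99A3 down to 0.03 and OsKO4 to 0.34, and with any array other than HH1 replicate 3 left out none of the probe sets tested passed. Without HH1 replicate 1 or 2, CYP76M5 and the dimmer probe set of CYP76M6 were too dim to be tested. With HH1 replicate 3 left out the HH1 group has 2 arrays, those in which most of these genes were high. Passes in this fit, here and below, are therefore no separate support for a difference between genotypes. Why HH1 replicates 1 and 2 differed from HH1 replicate 3 was not tested.

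**Figure D2:**
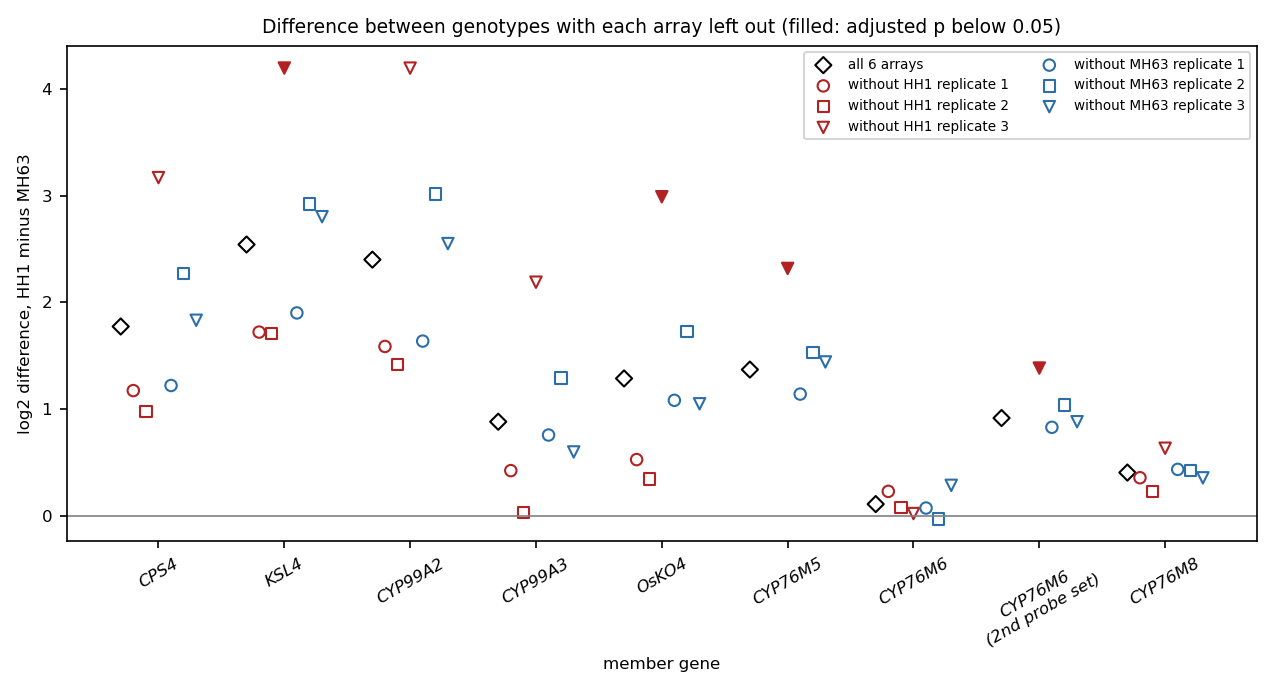
Log2 difference between genotypes (HH1 minus MH63) of each tested probe set with all 6 arrays and with each array left out in turn; filled symbols have an adjusted p below 0.05 in limma. The 4 filled symbols all belong to the fit without HH1 replicate 3, and the differences without HH1 replicate 1 or 2 lie lowest for CPS4, KSL4, CYP99A2, CYP99A3 and OsKO4.

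Rice keeps most of these genes in clusters, and the neighbours on the chromosome were compared by gene order. On chromosome 4 the annotation lists 9 genes from CPS4 to CYP99A2, of which 5 had a probe set. All 5 were high in HH1 replicates 1 and 2. They are the 4 genes of the list and OsMAS, the momilactone A synthase. OsMAS had signals of 526, 471 and 60.5 in HH1, against 51.4, 107 and 99.0 in MH63, a log2 difference of 1.59 ± 0.82 that did not pass (adjusted p 1.00 in limma). Without HH1 replicate 3 it was 2.61 and passed, with an adjusted p of 0.027. The nearest tested genes outside, ARP9 and LOC4335098, had log2 differences of 0.21 and 0.14, and ARP9 read 318, 374 and 342 in HH1 against 289, 316 and 288 in MH63.

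On chromosome 2 the stretch from CYP76M5 to CYP76M6 holds 14 annotated genes, of which 9 had a probe set and 7 were tested. HH1 replicates 1 and 2 each exceeded all MH63 arrays for 6 of these 7 (28.4% and 25.7% of all probe sets). HH1 replicate 3 was below all MH63 arrays for 4 (26.5%), namely CYP76M5, LOC4329723, KSL7 and CPS2, and below background for each. For CYP76M5, KSL7 and CPS2 the lowest MH63 array was below background too, so that order is not a measured difference. KSL7, which makes the phytocassane hydrocarbon, read 154, 142 and 12.0 in HH1, against 26.3, 70.3 and 17.4 in MH63. LOC4329723, which lies next to CYP76M8 and has no further name in the annotation, read 541, 926 and 10.1 in HH1, against 46.7, 180 and 50.7 in MH63, a log2 difference of 1.19. CYP71Z7, a P450 of phytocassane synthesis, read 290, 264 and 26.6 in HH1, against 52.9, 184 and 19.2 in MH63. CPS2, the phytocassane cyclase, is named here after its values were seen: it read 389, 418 and 10.6 in HH1, against 52.8, 122 and 14.1 in MH63. None of these 4 passed, with or without HH1 replicate 3 (smallest adjusted p 0.11 in limma, for LOC4329723 without it). HH1 replicate 3 was below background for all 4. MH63 replicate 3 was too for KSL7, CYP71Z7 and CPS2, and MH63 replicate 1 for KSL7. KSL5 and CYP71Z6 of the same stretch were at or below background on all arrays.

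On chromosome 6 the kaurene oxidase family lies side by side. OsKO5, also CYP701A9, a paralogue of OsKO4, read 126, 222 and 13.1 in HH1, against 22.1, 66.9 and 19.6 in MH63, a log2 difference of 1.22 ± 1.05. HH1 replicate 3 and MH63 replicates 1 and 3 were below background for OsKO5, so the size of that difference is not settled. OsKO2, the member of the family that serves gibberellin synthesis, read 146, 117 and 131 in HH1, against 117, 127 and 129 in MH63, a log2 difference of 0.07 ± 0.14, from a probe set that can bind related transcripts. OsKO5 was thus high in HH1 replicates 1 and 2, as OsKO4 was, and OsKO2 had nearly the same signal on all 6 arrays. Counting up to 3 genes on each side of every listed gene, 10 neighbours were tested, with log2 differences from -0.11 to 1.59, and 0 of them passed. Of the 6 that are on none of the pathway lists, 1 exceeded 1, LOC4329723, whose identity is unsettled as said above. Another of them, LOC4341445 near CYP76M7, is named here after its values were seen. It read 3044, 2751 and 2380 in HH1, against 1885, 1594 and 1453 in MH63, from a probe set that can bind related transcripts. Its log2 difference was 0.73 ± 0.15 (unadjusted p 0.0016, adjusted p 0.47 in limma), with HH1 replicate 3 also above MH63.

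**Figure D3:**
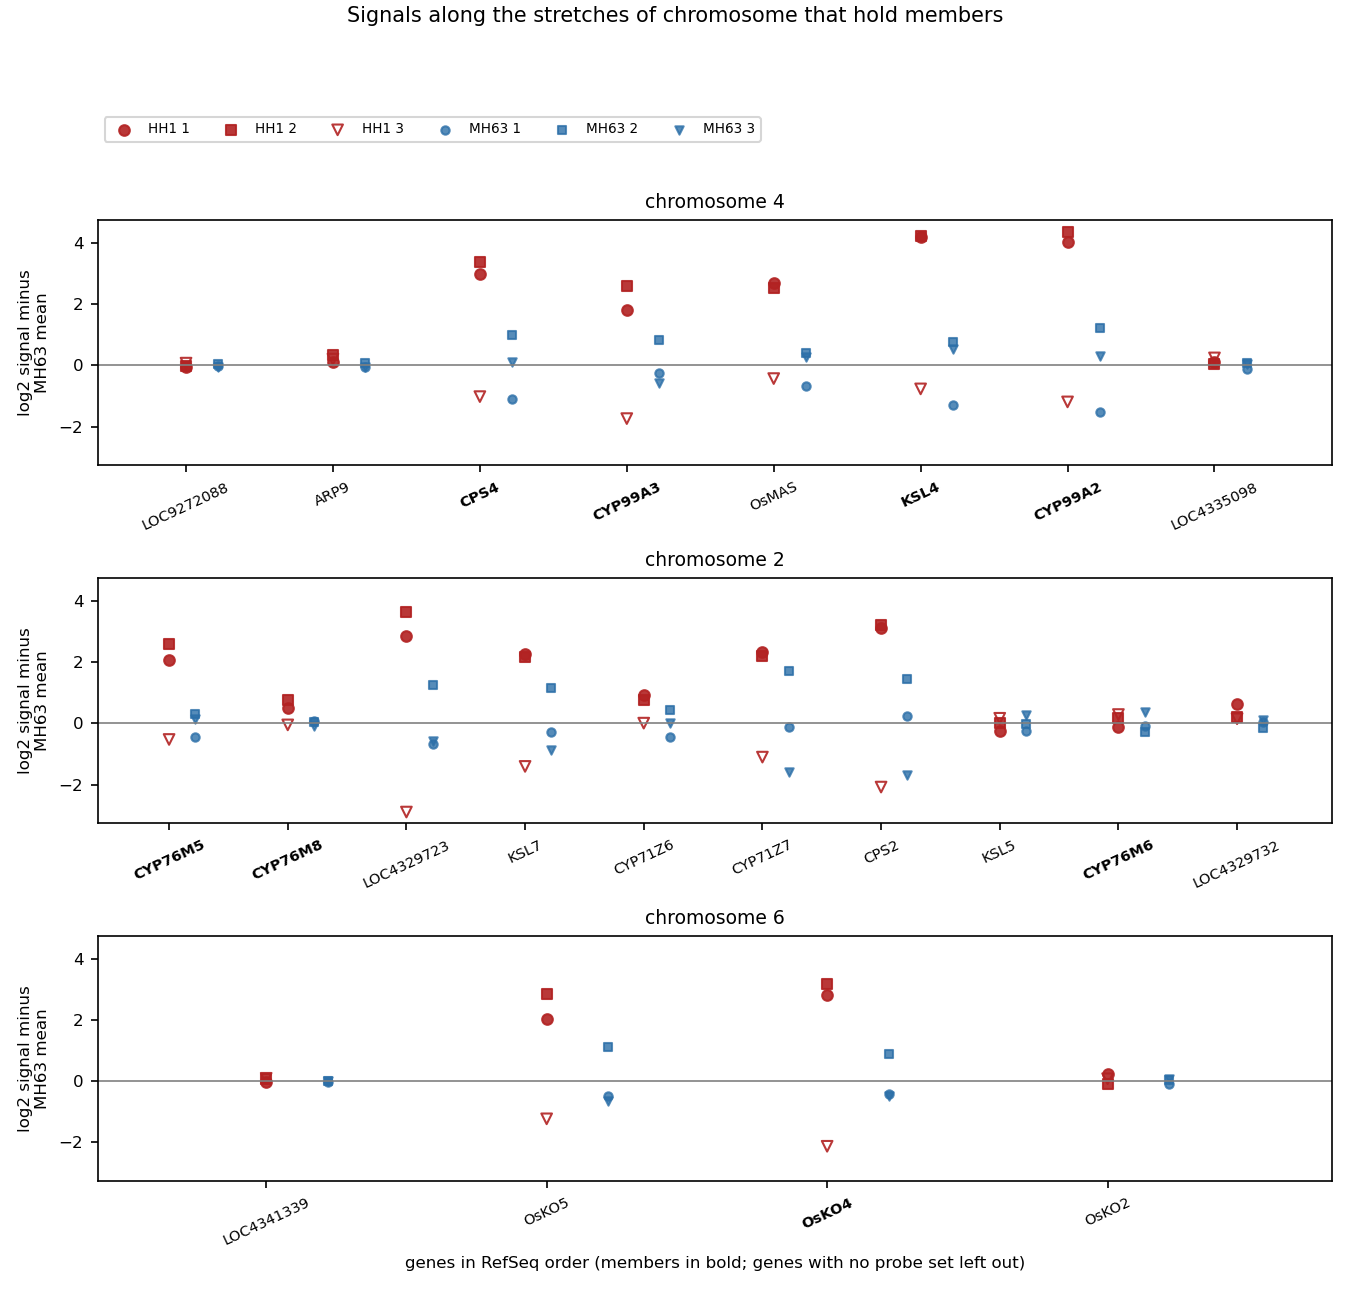
Log2 signal of each array minus the mean of the MH63 arrays for genes with a probe set, in RefSeq gene order, along the stretches of chromosomes 4, 2 and 6 that hold the listed genes (bold; HH1 arrays in red, MH63 arrays in blue; the stretch around CYP76M7 is left out). KSL4 and CYP99A2 were more than 4 above the MH63 mean in HH1 replicates 1 and 2, while ARP9, LOC4335098, LOC4341339 and OsKO2 stayed near 0 on all arrays, as did KSL5 and the brighter probe set of CYP76M6 inside the chromosome 2 cluster.

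Other genes of the pathway were read from lists of names. In the list of further diterpenoid genes, 10 genes matched, 9 had a probe set and 6 were tested: CPS2, KSL7, OsKO5, CYP71Z7, OsMAS and the transporter ABCG36. None passed, all 6 differences were above 0, from 1.01 to 1.65, and their median was 1.32. ABCG36, an ABC transporter of the full-size ABCG group with a role in defence, read 1658, 1232 and 163 in HH1, against 163, 306 and 214 in MH63. Without HH1 replicate 3, 2 of the 6 passed, OsMAS and ABCG36, where 1.07% of all probe sets did. ABCG36 was then at 2.70 with an adjusted p of 0.015 in limma. KSL10, the synthase of the oryzalexin branch, was at or below background on all arrays.

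Genes of the plastid isoprenoid pathway, which leads to the precursor, differed by smaller steps. Of the plastid isoprenoid pathway and geranylgeranyl diphosphate list, 4 genes were measured and tested, all of the plastid pathway. DXR, which makes the first committed intermediate of that pathway, read 1024, 1005 and 265 in HH1, against 325, 361 and 274 in MH63, a log2 difference of 1.03 ± 0.51. ISPH, the last enzyme of the pathway, read 1343, 1412 and 509 in HH1, against 665, 737 and 578 in MH63 (0.59 ± 0.39 on the log2 scale). ISPG, the enzyme before it, had a log2 difference of 0.61 ± 0.31, and MCS, the cyclodiphosphate synthase in mid-pathway, 0.46 ± 0.21. None of the 4 passed with all arrays. Both HH1 replicate 1 and HH1 replicate 2 exceeded all MH63 arrays for all 4, and HH1 replicate 3 was below all MH63 arrays for DXR, ISPG and ISPH. Without HH1 replicate 3, DXR (1.67, adjusted p 0.012) and ISPH (1.07, adjusted p 0.037) passed in limma, where 1.07% of all probe sets did.

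Gibberellin enzymes had smaller differences, mostly below 0. Of 5 genes tested, 4 differences were below 0 and 1 above, from -0.38 to 0.07, with a median of -0.33, and 0 passed. CPS1, the gibberellin counterpart of CPS4, read 135, 139 and 146 in HH1, against 197, 162 and 158 in MH63, a log2 difference of -0.30 ± 0.14. The genotypes did not overlap for it, as for 8.78% of all probe sets. GA20OX3, a late oxidase of the pathway, read 392, 370 and 377 in HH1, against 532, 456 and 499 in MH63, again without overlap (-0.38 ± 0.11, adjusted p 1.00 in limma, unadjusted p 0.013). OsKS1 had a log2 difference of -0.33 ± 0.24, from a probe set that can bind related transcripts. KAO also did not overlap, but it was at or below background on all HH1 arrays and near it in MH63, so no fold is given. Its difference is still counted among the 4 below 0 and in the median.

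Among regulators and signalling proteins reported for phytoalexin synthesis or elicitor response, 14 genes were tested and 0 passed, with 9 differences above 0, 5 below and a median of 0.04. RLK10, a receptor-like kinase that also carries the synonym CERK1, read 177, 213 and 190 in HH1, against 297, 265 and 275 in MH63, a log2 difference of -0.53 ± 0.13 (adjusted p 0.84 in limma), and its other probe set differed by -0.57. The brighter probe set of RLK10, given first, can bind related transcripts. The gene with the symbol CERK1, LOC4346173, differed by 0.03. MPK5, a MAP kinase of defence signalling, read 1704, 1675 and 825 in HH1, against 1024, 928 and 948 in MH63. It was the 1 gene of the 14 that passed without HH1 replicate 3, where 1.07% of all probe sets did. Its difference was then 0.81, with an adjusted p of 0.047 in limma. JAR1, which conjugates jasmonate to isoleucine, and AOC, the allene oxide cyclase of jasmonate synthesis, had log2 differences of 0.25 ± 0.15 and 0.23 ± 0.14.

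**Figure D4:**
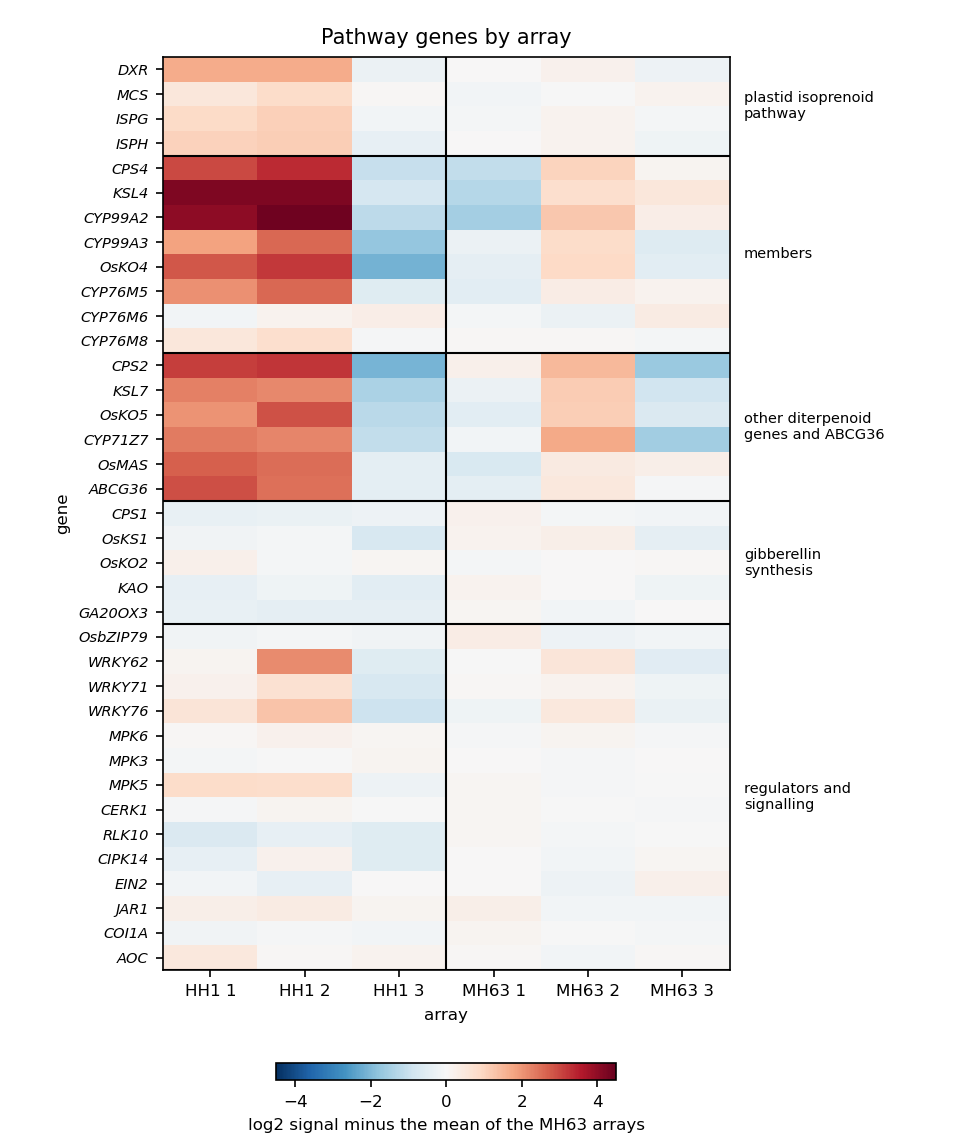
Log2 signal minus the mean of the MH63 arrays for the genes tested, by array (columns; HH1 left, MH63 right) and by group of genes (rows). Members, further diterpenoid genes and plastid isoprenoid genes were red in HH1 replicates 1 and 2 apart from CYP76M6, while gibberellin genes lay between -0.73 and 0.25 on every array.

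The profile over the 6 arrays was last compared with that of 2146 other genes that carry a name. The measure was the root-mean-square difference, in log2 units, between a gene's profile and the mean profile of the 8 listed genes, each centred on its own mean, so a small value means the same arrays high and low by the same amount. The listed genes themselves lay between 0.23 (CYP76M5) and 1.43 (CYP76M6) from that mean, and the median over the other genes was 1.40. The 8 closest were AOS (LOC4332121), an allene oxide synthase, at 0.21, OsMAS at 0.26, ABCG36 at 0.30, the ABC transporter ABCG44 at 0.35, the transcription factor OsWRKY24 at 0.37, the elicitor-responsive gene ERG1 at 0.39, OsKO5 at 0.40 and DXPS at 0.43. AOS read 570, 574 and 63.2 in HH1, against 50.4, 156 and 104 in MH63. DXPS, named as the synthase of the first step of the plastid isoprenoid pathway and absent from the list above, read 255, 410 and 52.7 in HH1, against 72.3, 186 and 90.5 in MH63. OsWRKY24 read 481, 426 and 56.3 in HH1, against 83.8, 91.9 and 99.6 in MH63. The choice by likeness fixes that these genes were high in HH1 replicates 1 and 2. ERG1 and OsWRKY24 had their highest MH63 signal in replicate 3, unlike most of the listed genes.

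**Figure D5:**
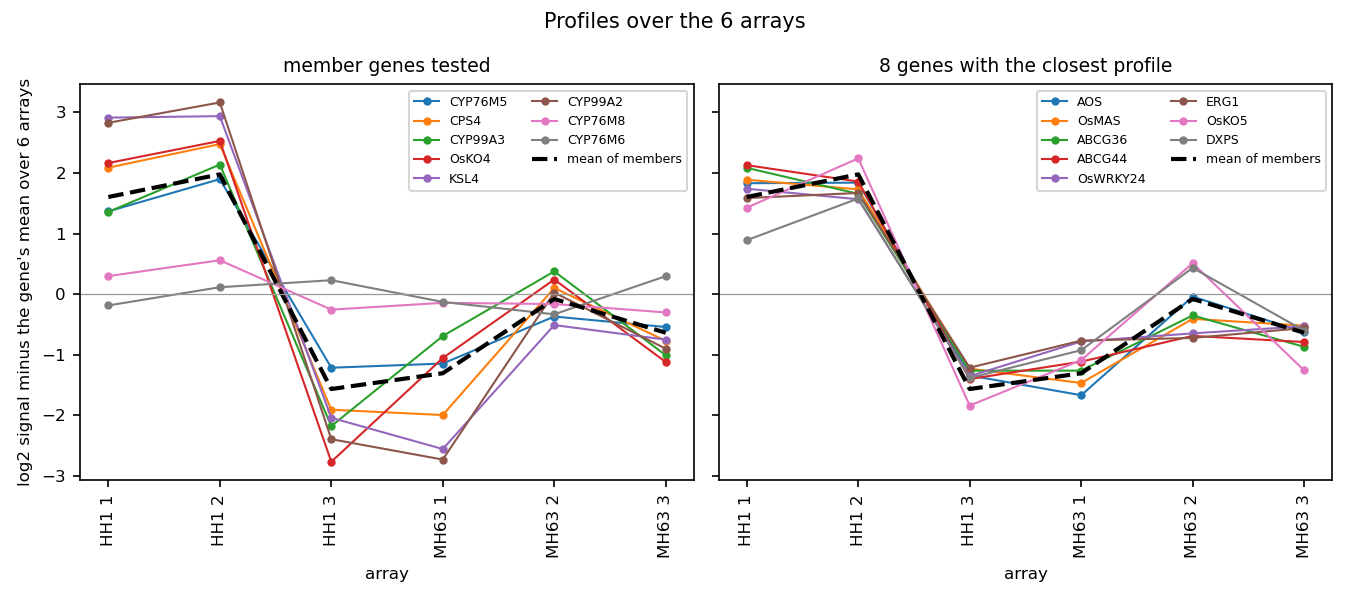
Log2 signal of each gene minus its own mean over the 6 arrays, for the 8 listed genes tested (left) and for the 8 other named genes with the closest profile (right); lines join the values of a gene and the dashed line is the mean of the listed genes. That mean was 1.60, 1.98 and -1.57 in HH1 replicates 1, 2 and 3 and -1.30, -0.08 and -0.64 in MH63 replicates 1, 2 and 3.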

How the data were processed

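The values are the deposited signal intensity per probe set and array, on a linear scale. MAS5 is named, unversioned, per the submitters' processing notes. The 2%-trimmed means of the arrays lay between 161 and 170, so the authors' scaling is not settled. No source used here names the genome build behind the array, and RefSeq served only for names, chromosomes and gene order.

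Log2 signals were used without an offset. Of 57194 probe sets without the 187 controls, the brighter 50% by mean log2 signal (28597) were tested by two-sided tests in limma 3.58.1 under R 4.3.3 (lmFit, then eBayes with trend) at a Benjamini-Hochberg threshold of 0.05. The fit was tested on simulated data. A gene is represented by its brightest probe set. The members and lists were chosen with earlier results of these data known.

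Text names all members, up to 4 genes per list by smallest p, list genes within 3 genes of a member, and the 8 closest profiles. In the pathway lists 4 genes matched only through an abbreviation shared with another protein and were set aside after their values were seen, and none of them passed: their log2 differences were -0.39 (MS, further diterpenoid list), -0.21 and 0.34 (MCS LOC4341801 and IDI1, isoprenoid list) and -0.20 (CPS, gibberellin list). RLK10, which shares the name CERK1 with LOC4346173, was not set aside and counts among the 14 regulators tested. No sequences were used here. Alternatives covered scaling, filter, offset, trend, array weights, a replicate block, and leaving out each array. Figures were drawn with matplotlib 3.10.9.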

Additional observations from a re-analysis of the deposited data

How the results depend on the processing

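With no brightness filter 54 probe sets were called and with the brightest 25% 8, beside 32 as reported, where more and fewer probe sets entered the test. Array weights gave 50 calls (the cause was not tested) and the replicate block 17. When single arrays were dropped, calls over all probe sets ran between 0, with HH1 replicate 1 dropped and 843 probe sets at an unadjusted p under 0.05, and 306, with HH1 replicate 3 dropped. The calls ran from 0 to 4 among the members and 0 to 5 among other pathway genes. The median over the member genes tested, 7 or 8 in these fits, ran from 0.34 to 2.65 on the log2 scale. In the other settings run, 0 members and 0 other pathway genes passed. Of 119 repeats of the members' log2 differences, 114 kept their sign and their side of the threshold and 4 came to pass, all with HH1 replicate 3 dropped. The other one changed sign: the brighter CYP76M6 probe set ranged from -0.031 (MH63 replicate 2 dropped) to 0.28. Replicate numbers were not shown to pair the samples: deviations of same-numbered arrays correlated at -0.12, 0.45 and 0.31, and HH1 replicate 1 was closest to MH63 replicate 3 (0.25). With the replicate block 0 members passed.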

Other observations

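WRKY62 and WRKY76, transcription factors known in rice as repressors of defence genes, and the bZIP factor below were picked after their values were seen. WRKY62 read 120, 481 and 76.3 in HH1, against 110, 161 and 76.9 in MH63, so HH1 replicate 2 stood alone. WRKY76 read 46.7, 76.3 and 16.3 in HH1, against 27.5, 43.0 and 25.6 in MH63. Neither passed, with log2 differences of 0.57 ± 0.66 and 0.31 ± 0.54 (adjusted p 1.00 for each in limma). OsbZIP79, a TGA-type bZIP factor, read 548, 579 and 545 in HH1, against 774, 519 and 563 in MH63.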
